A study of Mus musculus with 15 samples.

Results

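The genes described here are 10 that encode core and naive pluripotency transcription factors of the mouse: Pou5f1, Nanog, Sox2, Esrrb, Klf4, Klf2, Klf5, Prdm14, Tfcp2l1 and Zfp42. They were chosen by name, with earlier results of these data known. Each locus was taken as the gene span of the GENCODE M21 annotation on mm10 plus 10 kb upstream of the transcription start site (TSS). The 10 loci are part of 20807 autosomal protein-coding genes and hold 5706 of 20383623 autosomal CGs. DNA came from E14TG2a mouse embryonic stem cells (mESCs) grown on 0.1% gelatin with 15% FBS and LIF at 1000 U/ml, and no group had another genotype or treatment. hmTOP-seq, which tags 5-hydroxymethylcytosine (5hmC) through an azide-glucose added by the enzyme BGT and reads the CG beside the tag, was run from 500, 50 and 5 ng of DNA with 2 technical replicates each. Control libraries made without BGT were run at each input, also with 2 replicates, and uTOP-seq, which reads unmodified CGs (uCGs), was run from 300 ng with 3 replicates.

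The 500-ng libraries held 32502791 and 31918445 reads, the 50-ng libraries 23027170 and 22052535, and the 5-ng libraries 14884939 and 15277636. uTOP-seq gave 28412885, 23078739 and 20120568 reads. The controls of 500 ng held 10072 and 9348 reads, those of 50 ng 3409 and 3448, and those of 5 ng 3744 and 4790. At the 10 loci together, the 500-ng libraries had 15198 and 15077 reads and their controls 4 and 1, while the 50-ng libraries had 10977 and 9904 and their controls 1 and 7. The control reads lay in Esrrb at 500 ng, and in Pou5f1 (1 read) and Tfcp2l1 (7 reads) at 50 ng. All data are DNA reads, so the cell type could not be checked against expressed markers. The replicates are technical libraries of the same cell line, so each p-value below sets a difference against the spread between such libraries and not between cultures. Reads carry no molecular identifiers, and intervals and floors therefore cover counting error only.

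Naive pluripotency is held by a network of transcription factors that bind at one another's enhancers and keep embryonic stem cells self-renewing. Pou5f1 (Oct4), Sox2 and Nanog form the core of this network, and the Klf factors, Esrrb, Tfcp2l1, Prdm14 and Zfp42 (Rex1) belong to its naive branch. 5hmC is made from 5-methylcytosine by TET enzymes and is known in embryonic stem cells from gene bodies and enhancers, while active CG-rich promoters are largely unmodified.

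Levels are given as reads per CG of a region divided by the reads per CG of the same library over all autosomal CGs, so 1 is the autosomal average. They are shares of a library's reads and not percentages of modified DNA. A percentile ranks a locus among the 20806 autosomal protein-coding genes with at least 10 CGs.

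The core factor genes carried 5hmC near or below the level of the typical gene and uCG far above it. Pou5f1, the POU factor that forms a partner complex with Sox2, lies at chr17:35506018-35510772 on the plus strand (ENSMUSG00000024406.16). Its 5hmC level was 0.791 and 0.841 at 500 ng and 0.971 and 0.767 from 50 ng. Its uCG level was 3.47, 3.67 and 3.94, the highest of the 10 loci and at percentile 99.9 of all genes. Sox2, an HMG-box factor at chr3:34650405-34652461 on the plus strand (ENSMUSG00000074637.7), had 5hmC levels of 0.706 and 0.725 at 500 ng and of 0.848 and 0.840 from 50 ng. Its uCG level was 2.85, 2.88 and 2.78, so every uTOP-seq library was above every hmTOP-seq library at 500 and 50 ng, as at Pou5f1. Nanog, a homeobox factor, lies at chr6:122707489-122714633 on the plus strand (ENSMUSG00000012396.12) and had 5hmC levels of 1.12 and 1.13 at 500 ng and 1.49 and 1.15 from 50 ng. Its uCG level was 2.24, 2.43 and 2.71, and these libraries too were all above the hmTOP-seq libraries at those inputs. The gene median was 1.03 for 5hmC at 500 ng and 1.31 for uCG, so Nanog was the single core gene above the median in 5hmC, at percentile 53.9.

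The Krüppel-like factors Klf4, Klf2 and Klf5 bind GC-rich and CACC motifs and overlap in function in naive cells, yet their 5hmC levels were far apart. Klf4 (chr4:55527143-55532466, minus strand, ENSMUSG00000003032.8) had 5hmC levels of 0.463 and 0.549 at 500 ng and 0.328 and 0.429 from 50 ng. Klf2 (chr8:72319033-72321656, plus strand, ENSMUSG00000055148.7) had 0.505 and 0.521 at 500 ng and 0.535 and 0.523 from 50 ng. These were the lowest 5hmC levels of the 10 loci, at percentiles 23.9 and 24.2 at 500 ng, and the means of the pair (0.506 and 0.513) differed by less than the SD of Klf4 between replicates (0.0607). Klf5 (chr14:99298691-99315036, plus strand, ENSMUSG00000005148.8) had 5hmC levels of 1.59 and 1.75 at 500 ng and 1.79 and 1.78 from 50 ng, above Klf4 and Klf2 in every library of these inputs. In uCG, Klf4 had levels of 1.81, 1.85 and 1.94, and Klf2 had 2.63, 2.48 and 2.32. Klf5 had uCG levels of 3.30, 2.37 and 2.21, and its replicate 1 stood apart from the others, which gave the widest spread of uCG among the 10 loci (SD 0.592, n = 3).

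Esrrb, an orphan nuclear receptor, had the highest 5hmC level of the 10 loci. It is also the longest, at chr12:86361117-86521628 on the plus strand (ENSMUSG00000021255.17), with 2252 of the 5706 CGs. Its 5hmC level was 2.53 and 2.54 at 500 ng and 2.51 and 2.33 from 50 ng, at percentiles 92.2 and 92.5. Its uCG level was 2.26, 2.27 and 2.28, and it was the single locus of the 10 whose 5hmC libraries at 500 and 50 ng all stood above its uCG libraries. Prdm14, a PR-domain factor that represses DNA methyltransferase genes, followed with 5hmC levels of 2.10 and 1.93 at 500 ng and 1.90 and 1.7 from 50 ng. Prdm14 lies at chr1:13113457-13127163 on the minus strand (ENSMUSG00000042414.7), and its uCG level was 2.11, 2.27 and 2.29. Tfcp2l1, a Grainyhead-like factor downstream of LIF signalling, lies at chr1:118627945-118685168 on the plus strand (ENSMUSG00000026380.10). Its 5hmC level was 1.72 and 1.65 at 500 ng and 1.89 and 1.71 from 50 ng, and its uCG level was 2.33, 2.28 and 2.44. Tfcp2l1 and Klf5 were thus next to each other in 5hmC at 500 ng, with means of 1.69 and 1.67 that differed by less than the SD of either. Zfp42, a zinc-finger gene long used as a marker of undifferentiated cells, lies at chr8:43295063-43306980 on the minus strand (ENSMUSG00000051176.6). Its 5hmC level was 0.737 and 0.782 at 500 ng and 0.684 and 0.902 from 50 ng, and its uCG level was 1.58, 1.63 and 1.51, lower than at the other loci when all CGs are counted. At CGs in unique sequence (below) its levels were 1.21 in 5hmC at 500 ng and 2.54 in uCG, and its uCG level was then not the lowest.

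Ordered by 5hmC at 500 ng, the loci ran Esrrb, Prdm14, Tfcp2l1, Klf5, Nanog, Pou5f1, Zfp42, Sox2, Klf2 and Klf4. Over all CGs, the 5hmC level exceeded the gene median at 5 of the 10 loci, with a median of 0.970 against 1.03 over all genes and a median percentile of 46.8. Ranked within the fifth of genes with a like CG density, 3 loci (Esrrb, Prdm14 and Tfcp2l1) were above the middle and the median percentile was 18.7. The uCG level exceeded the gene median at 10 of 10 loci, with a median of 2.40 against 1.31 over all genes and a median percentile of 92.1. Within the fifth of like CG density it was 8 of 10, with Klf4 at percentile 33.8 and Zfp42 at 17.3, and the median percentile was 87.5. The rank of Zfp42 in uCG includes its CGs without a unique flank. At CGs with one its uCG level was 2.54, for which no rank is given. Of 20 other genes of the pluripotency network, 16 were above the gene median in 5hmC and 20 in uCG, at median levels of 1.36 and 2.59. The plot of levels by library shows the 5hmC order and each replicate. The 3 genes whose reads per CG over the 7 libraries of 500 ng, 50 ng and uTOP-seq came closest to Esrrb were Bsg, Tab1 and Igdcc3, at Euclidean distances of 0.0480, 0.115 and 0.119 on the log2 scale.

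**Figure D1:**
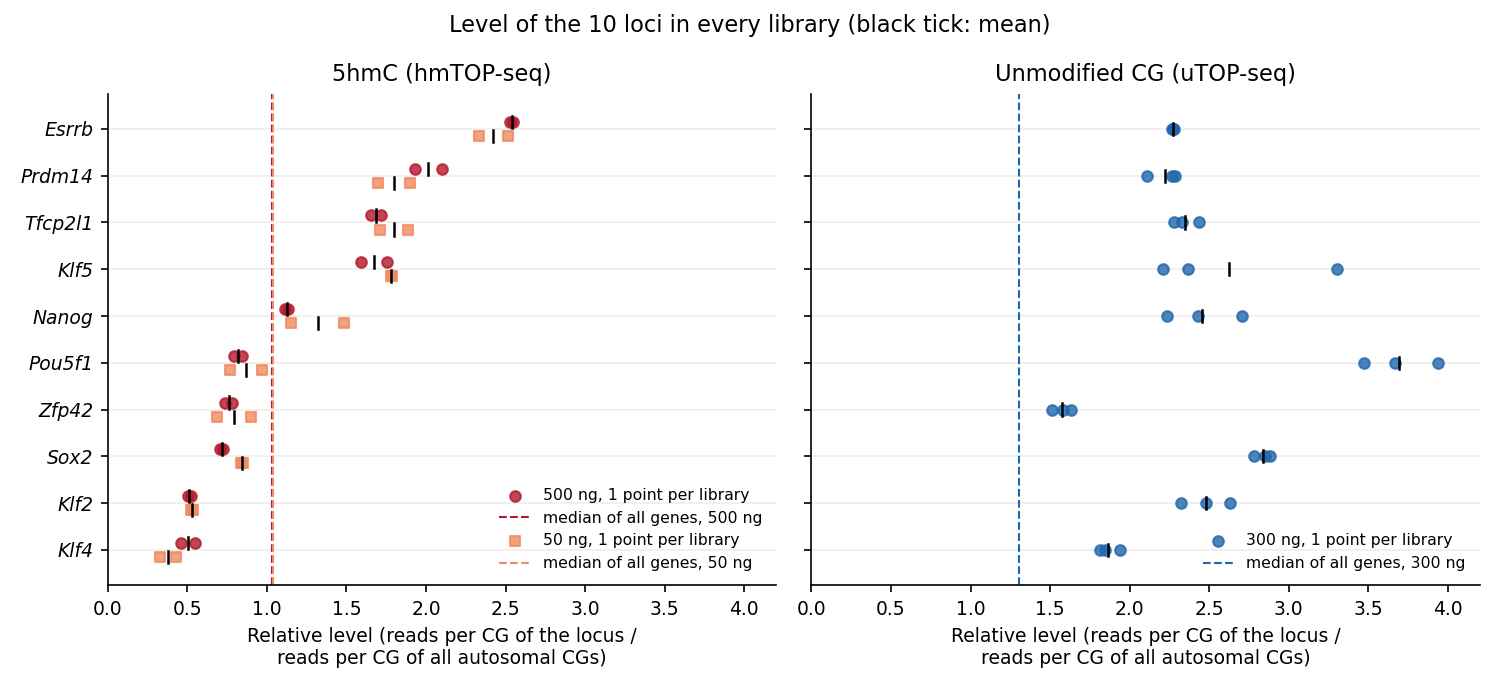
The x axis gives the relative level (reads per CG of the locus over reads per CG of all autosomal CGs) and the y axis the 10 genes in the order of 5hmC at 500 ng, with 1 point per library, a black tick for the mean and dashed lines for the median of all genes. In 5hmC the loci run from Klf4 at 0.506 to Esrrb at 2.54, while in uCG all 10 lie to the right of the gene median of 1.31.

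A comparison of 50 with 500 ng asks whether a gene holds the same share of 5hmC reads when less DNA is used. Of the 10 genes, 0 passed edgeR's quasi-likelihood test at an adjusted p of 0.05 (Benjamini-Hochberg), against 1 of 19781 genes tested (0.00506%). At an unadjusted p under 0.05 there was 1 of the 10, against 2351 of 19781 genes (11.9%), and DESeq2, which gave an adjusted p for Esrrb, Klf5 and Tfcp2l1 of the 10, called 0 of these. The 10 log2 fold changes ran from -0.41 to 0.25, with a median of 0.09 against 0.00 over all genes, and adjusted p-values from 0.397 to 0.928. Klf4 was the gene with an unadjusted p under 0.05: its 317 and 369 reads at 500 ng and 159 and 199 reads from 50 ng gave a log2 fold change of -0.41 (SE 0.18, adjusted p = 0.397), and its level was lower in both 50-ng libraries than in both 500-ng libraries. Sox2 had the highest value, 0.25 (SE 0.12, adjusted p = 0.431), with 482 and 486 reads at 500 ng and 410 and 389 from 50 ng, and its level was higher in both 50-ng libraries. At all genes but Klf5, Sox2 and Klf2 the 50-ng libraries lay apart by more than the 500-ng libraries did, and the groups overlapped at Pou5f1, Zfp42 and Tfcp2l1. Among the 20 other network genes edgeR called 0, with 4 at an unadjusted p under 0.05, a median of 0.03 and adjusted p-values from 0.315 to 0.974. DESeq2, which gave an adjusted p for 5786 genes in all, called 0 of the network genes among them. The called gene of the genome was Gm20388, named after its values were seen, a gene of chromosome 8 whose locus holds 76640 CGs, with 290139 and 280895 reads at 500 ng and 192960 and 181835 from 50 ng (log2 fold change -0.08, adjusted p = 0.0149).

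The count of called genes depended on the setting. It was 176 with DESeq2 and 121 with the replicates as a block. With 50-ng replicate 1 left out, 2615 genes passed, and with 50-ng replicate 2 left out, 2650 passed, where the lone library was assumed to vary like the 500-ng group. Then Esrrb had a log2 fold change of -0.11 without replicate 1 (adjusted p = 0.0126, range over the settings 0.0126 to 0.9998), and without replicate 2 Klf4 had -0.62 (adjusted p = 0.00458, range 0.00458 to 0.9998) and Nanog 0.41 (adjusted p = 0.0156, range 0.0156 to 0.9998). Pou5f1 turned to -0.08 without replicate 1, Zfp42 to -0.14 without replicate 2, and Klf5 to -0.02 over the gene span alone, where Klf2 rose from 0.05 to 0.89 (adjusted p = 0.368, range 0.368 to 0.9998) and was not called.

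5hmC was then set against uCG at the same loci, to see which genes hold a larger share of 5hmC reads than of uCG reads, relative to the typical gene. For 8 of the 10 genes the 5hmC share was lower than the uCG share, against 41.4% of 20202 genes tested, and for 1, Esrrb, it was higher, against 40.4%, with edgeR's quasi-likelihood test (Benjamini-Hochberg). The median log2 ratio of the 10 was -0.82, against -0.02 over all genes tested. Without TMM scaling the median of all genes moved to -0.27, with 5636 genes higher and 11066 lower, so each ratio is relative to that choice.

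The lowest ratios belonged to Klf2, Pou5f1, Sox2 and Klf4. Klf2 had 228 and 231 5hmC reads against 1033, 791 and 646 uCG reads, a log2 ratio of -2.01 (SE 0.09, 4.03-fold lower, adjusted p = 3.28e-26). Pou5f1 had 251 and 262 5hmC reads against 958, 822 and 769 uCG reads, which gave -1.91 (SE 0.09, 3.76-fold lower, adjusted p = 8.39e-26). At both genes every hmTOP-seq library had fewer reads than every uTOP-seq library, although the 500-ng libraries were the deeper ones. Sox2 followed at -1.73 (SE 0.07, 3.31-fold lower) with 482 and 486 against 1696, 1390 and 1171 reads. Klf4 was at -1.62 (SE 0.08, 3.07-fold lower) with 317 and 369 against 1080, 893 and 818 reads. These values include the 10 kb upstream. Over the gene span alone the ratio was -3.67 at Klf2 and -3.46 at Pou5f1, and Sox2 had 1 5hmC read at 500 ng against 1110 uCG reads, so size and order of these ratios depend on the region. Pou5f1, Sox2 and Klf4 encode factors that reprogram somatic cells, and at these genes and at Klf2 the levels of the assays did not overlap.

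Nanog (-0.86, SE 0.09, adjusted p = 1.45e-12) and Zfp42 (-0.79, SE 0.08, adjusted p = 3.90e-13) were lower by smaller amounts, with no overlap between the assays in level. Tfcp2l1 was at -0.21 (SE 0.05, adjusted p = 0.000362), with 1445 and 1365 5hmC reads against 1704, 1352 and 1262 uCG reads, so its raw reads overlapped while its levels did not. Klf5 had 1350 and 1458 5hmC reads against 2435, 1416 and 1152 uCG reads and a ratio of -0.40 (SE 0.08, adjusted p = 9.89e-06). Its call depended on the setting: the ratio was -0.19 without uTOP-seq replicate 1, -0.94 when centred on the median of its chromosome, and -0.37 with DESeq2 (adjusted p = 0.159, range over the settings 1.72e-18 to 0.159). Esrrb was higher at 0.42 (SE 0.03, 1.34-fold, adjusted p = 8.13e-19), with 8991 and 8874 5hmC reads against 7002, 5695 and 4985 uCG reads. It kept this direction in 12 of 12 settings, with ratios from 0.17 to 0.47. Prdm14, with 1230 and 1109 against 1074, 937 and 825 reads, was at 0.13 (SE 0.06, adjusted p = 0.0676) and was not called. Without TMM it was at -0.13 (adjusted p = 0.0586), and it passed in 4 of 12 settings, among them without 500-ng replicate 2 (0.19, adjusted p = 0.0382) and without uTOP-seq replicate 3 (0.15, adjusted p = 0.0399), within a range of 0.00240 to 0.519. Klf2 and Zfp42 lie on chromosome 8 and Klf5 on chromosome 14, where the median ratio over genes was 0.31 and 0.54, and the part of copy number in these values was not tested.

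Among the 20 other network genes, 3 were higher and 14 lower, against 40.4% and 41.4% of all genes tested, with a median of -0.49. The lowest were Tdgf1, which encodes a Nodal co-receptor, at -1.87 (SE 0.08, adjusted p = 7.64e-27) and the proto-oncogene Mycn at -1.80 (SE 0.08, adjusted p = 4.07e-27). The highest were Sall4, a zinc-finger partner of Pou5f1, at 0.35 (SE 0.04, adjusted p = 6.11e-10) and Dppa3 (Stella) at 0.29 (SE 0.09, adjusted p = 0.00408). The plot of the assays against each other places the 10 genes among all genes.

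**Figure D2:**
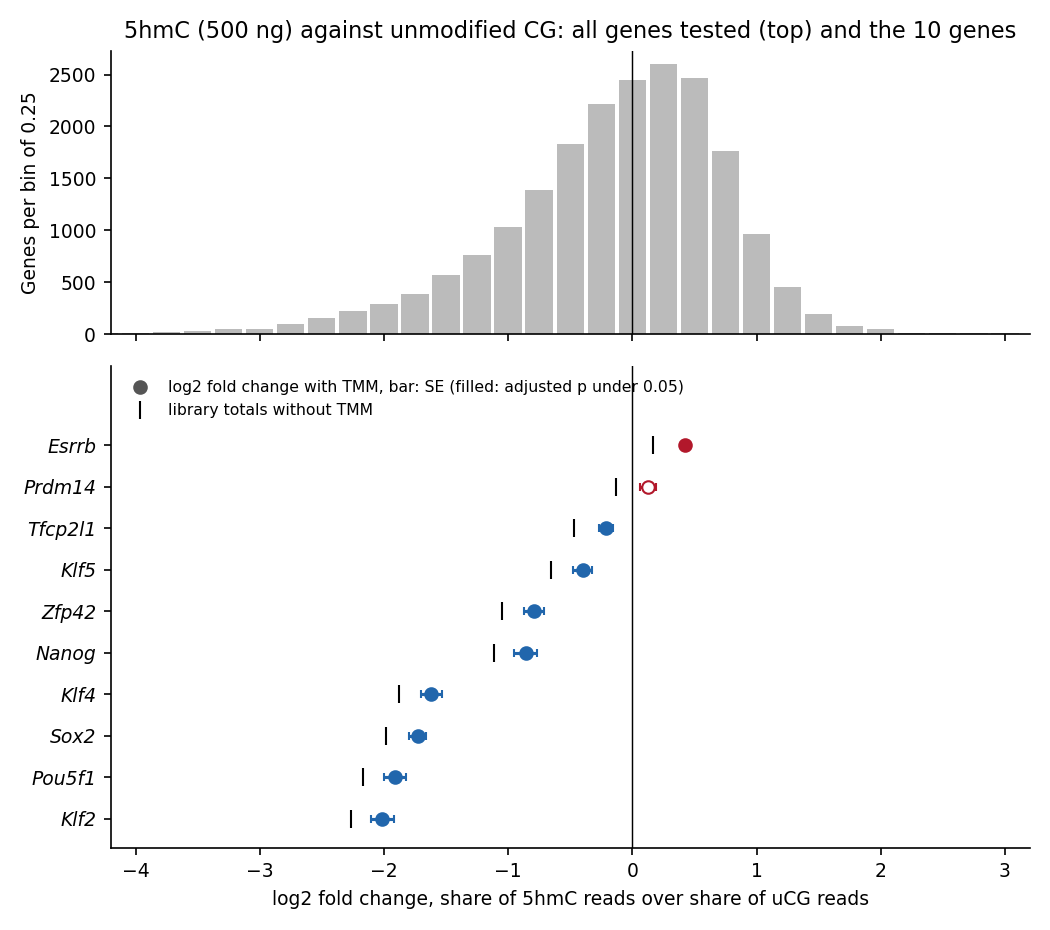
The upper panel counts all 20202 genes tested by their log2 ratio of 5hmC to uCG share in bins of 0.25, and the lower panel gives the 10 genes with bars for the SE, filled points for an adjusted p under 0.05 and ticks for values without TMM. Klf2, Pou5f1, Sox2 and Klf4 lie below -1.6 and Esrrb lies above 0, while Prdm14 changes sign without TMM.

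Promoter sequence differed widely within the group. Counting CGs wholly within 1 kb on each side of the TSS, Klf4 had 179 CGs, Sox2 171, Klf5 154 and Klf2 151, at or above percentile 94.3 of all genes, while Nanog had 34, Esrrb 42, Pou5f1 43 and Zfp42 50, below the gene median of 64. Tfcp2l1 and Prdm14 had 66 and 80. The Esrrb count, and the Esrrb promoter printed below, belong to the outermost annotated start. The window at the start of its principal transcript held 100 CGs, above the gene median. The RefSeq promoter table (GRCm38.p6) matched 8 of the 10 genes, with no entry for Prdm14 and Klf5. Of the 250 bases before the RefSeq start, the promoters with the most CGs, Klf4 (32) and Klf2 (29), and those with the fewest, Nanog (3) and Esrrb (6), are printed 5′ to 3′ to show how far apart the CG content of these promoters lies, with CG dinucleotides in capitals. The median over 32851 promoters was 6 CGs. Klf4 is chr4:55532476-55532725 on the minus strand, and Klf2 is chr8:72318812-72319032 on the plus strand, from which the last 29 bases were left out. Nanog is chr6:122707239-122707488 and Esrrb is chr12:86360867-86361116, both on the plus strand.
Klf4 promoter: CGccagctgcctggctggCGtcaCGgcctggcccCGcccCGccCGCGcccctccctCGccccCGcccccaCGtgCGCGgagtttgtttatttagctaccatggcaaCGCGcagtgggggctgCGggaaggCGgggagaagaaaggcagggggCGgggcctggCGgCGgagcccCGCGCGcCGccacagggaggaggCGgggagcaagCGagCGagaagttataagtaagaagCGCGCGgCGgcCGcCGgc
Klf2 promoter: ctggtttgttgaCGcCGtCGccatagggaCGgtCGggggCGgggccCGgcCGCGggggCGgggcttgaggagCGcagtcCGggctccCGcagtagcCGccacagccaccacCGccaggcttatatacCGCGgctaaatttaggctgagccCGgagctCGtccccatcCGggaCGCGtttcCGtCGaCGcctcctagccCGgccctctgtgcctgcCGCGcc
Nanog promoter: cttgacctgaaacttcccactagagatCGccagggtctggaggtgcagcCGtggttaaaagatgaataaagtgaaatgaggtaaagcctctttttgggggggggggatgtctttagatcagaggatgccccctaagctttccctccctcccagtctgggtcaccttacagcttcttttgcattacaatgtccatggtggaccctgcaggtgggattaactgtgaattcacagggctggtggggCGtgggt
Esrrb promoter: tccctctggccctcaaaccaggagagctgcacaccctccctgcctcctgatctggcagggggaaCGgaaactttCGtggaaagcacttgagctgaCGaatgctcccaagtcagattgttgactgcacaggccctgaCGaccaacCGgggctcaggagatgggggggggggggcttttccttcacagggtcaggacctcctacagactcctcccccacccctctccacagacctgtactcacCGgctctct

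These 250 bases held 0 reads in each of the 500-ng and 50-ng libraries at Klf4, Klf2, Sox2 and Zfp42, and uCG reads at each of them: 18, 8 and 15 at Klf4, 74, 65 and 58 at Klf2, 62, 57 and 28 at Sox2, and 53, 60 and 37 at Zfp42. The Esrrb promoter printed above, that of the outermost annotated start, was the reverse, with 85 and 111 reads at 500 ng, 57 and 38 from 50 ng, and 7, 11 and 12 uCG reads. The wider window at the start of its principal transcript did not show this reverse pattern. Its mean hmTOP-seq level at 500 ng was 1.30, below the 2.63 in the rest of the gene span. Its mean uCG level was 2.80, above the 2.30 in the rest. The Nanog promoter had 1 and 1 reads at 500 ng, 14 and 0 from 50 ng, and 18, 28 and 29 uCG reads. Searched on both strands, the GC box GGGCGG occurred 4 times at Klf4, 2 times each at Klf2, Sox2 and Zfp42, and 1 time at Pou5f1, and 32.7% of all promoters held it. The CACC box CCACCC occurred 4 times at Pou5f1, 2 times at Zfp42 and 1 time each at Klf2 and Esrrb, with 28.1% of all promoters holding it. The octamer ATGCAAAT, a motif bound by Pou5f1, occurred in Zfp42 alone of the 8 (1 hit, 1.60% of all promoters). Only these exact letters were searched, so a promoter without a hit may still hold a variant Pou5f1 site. The oestrogen-related receptor element TNAAGGTCA occurred in 0 of the 8 (1.14% of all promoters).

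At the TSS, 5hmC was low in most of the group, as in most genes, and Esrrb was higher at its outermost annotated start but lower at its principal start. The window of 1 kb on each side of the TSS was compared with the rest of the gene span, called the gene body here, in reads per CG at 500 ng. Each library gave a value for both regions, and the main fit did not pair them. With edgeR's quasi-likelihood test (Benjamini-Hochberg), 7 of the 9 genes that could be tested were lower at the TSS, against 66.7% of 17873 genes, and 1 was higher, against 19.3%. The median log2 ratio of -1.63 was close to that of all genes, -1.66.

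Klf4 had 18 and 10 reads at 179 CGs of the TSS window, levels of 0.0637 and 0.0361, and 173 and 210 reads at 139 CGs of the gene body, levels of 0.789 and 0.975. Klf5 had 17 and 42 reads at 155 CGs of the window, levels of 0.0695 and 0.175, and 835 and 914 reads at 281 CGs of the body, levels of 1.88 and 2.10. In both genes the window lay far below the body in each library, with log2 ratios of -4.13 (SE 0.28, adjusted p = 7.95e-13) for Klf4 and -4.03 (SE 0.19, adjusted p = 5.32e-16) for Klf5. Klf2 had levels of 0.0792 and 0.0679 in the window and 0.416 and 0.455 in the body, a log2 ratio of -2.55 (SE 0.37, adjusted p = 6.94e-07). Pou5f1 had 9 and 2 reads in the window, levels of 0.133 and 0.0300, and 47 and 42 reads in the body, levels of 0.445 and 0.405, a ratio of -2.36 (SE 0.52, adjusted p = 0.000187). At these genes too both window values were below both body values. Tfcp2l1 (-1.63), Zfp42 (-1.62) and Nanog (-0.77, SE 0.24, adjusted p = 0.00404) were lower by less. Sox2, a gene of a single exon, had 5 and 1 reads at 171 CGs of the window and 0 and 0 at the 29 CGs of its body, so it did not pass the filter on low counts and no ratio is given. Without replicate 1 the ratio of Pou5f1 was -3.75 and that of Klf4 -4.76, and without replicate 2 that of Pou5f1 was -1.74 and that of Klf5 -4.76, each from a single library and with no test. Window size changed these values: with 500 bp on each side Klf4 was at -6.04 and Zfp42 at -3.27, and Klf5, with 2 reads left in the window, at -8.12 (interval from counting -11.17 to -6.26), while with 2 kb Klf4 was at -2.64.

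Esrrb had 273 and 276 reads at 42 CGs of its window, levels of 4.12 and 4.24, and 8468 and 8366 reads at 2111 CGs of its body, levels of 2.54 and 2.56. The window was thus above the body in both libraries (0.71, SE 0.08, adjusted p = 7.47e-09), and its level was at percentile 96.4 of all genes. This window surrounds the outermost annotated start. At the start of the principal transcript, 100 CGs had 218 and 190 reads, levels of 1.38 and 1.23, against 2.61 and 2.64 in the rest of the span, and the log2 ratio turned to -1.01 (adjusted p = 6.69e-12, range over the settings 6.21e-16 to 0.120). Prdm14 had 263 and 201 reads in its window, levels of 2.08 and 1.62, and body levels of 2.15 and 2.20, and was not called (-0.23, SE 0.12, adjusted p = 0.0691), with 0.06 in a window of 500 bp on each side and -0.26 with 2 kb, where it was called (adjusted p = 0.0189, range over the settings 0.0189 to 0.687). With 2 kb on each side, Esrrb (0.12), Klf2 (-0.28) and Nanog (-0.39) were no longer past the threshold, at adjusted p-values of 0.120, 0.690 and 0.0590 that are the highest of their settings.

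The 50-ng libraries gave the same comparison with fewer reads: 6 of 9 genes were lower, against 59.2% of 17593 genes, and 1, Esrrb, was higher, against 12.5%, with a median of -1.80 against -1.70. Klf4 and Pou5f1, 2 of the 6, had so few window reads that they are given with counting intervals. Of the 7 genes with more than 3 reads in each region, a limit chosen after seeing the data that takes out the genes with the emptiest windows, 4 were lower, against 57.3% of 16200 such genes, and 1 was higher, against 13.3%, with a median of -1.36 against -1.46. Klf4 had 0 and 2 reads in the window and 103 and 143 in the body, a ratio of -7.31 on the log2 scale with a 95% interval from counting of -10.36 to -5.44. Pou5f1 had 2 and 0 reads in the window and 46 and 16 in the body, a log2 ratio of -4.31 (interval -7.39 to -2.40). For both genes the direction was that of the 500-ng libraries. Replicate 2 alone, with 0 reads in the window of Pou5f1, allows a log2 ratio of up to -1.78, and replicate 1 alone, with 0 in the window of Klf4, allows up to -5.47. Klf5 had levels of 0.0693 and 0.127 in the window and 1.98 and 1.92 in the body (-4.31, SE 0.33, adjusted p = 6.76e-05), and Klf2 had 0.0530 and 0.0799 against 0.910 and 0.766 (-3.64, SE 0.60, adjusted p = 0.00160). Esrrb was again higher in the window, at 3.81 and 3.32 against 2.52 and 2.34 (0.55, SE 0.15, adjusted p = 0.0158), turned to -0.96 at the principal start, and was not called with the replicates as a block (adjusted p = 0.173, range 0.000895 to 0.294). Nanog (-0.98, adjusted p = 0.115) and Prdm14 (0.15, adjusted p = 0.607) were not called, although Prdm14 passed at 0.81 with 500 bp on each side (adjusted p = 0.0239, range 0.0239 to 0.757). From a single library, Nanog was at -1.81 without 50-ng replicate 1 and -0.45 without replicate 2, and Prdm14 at -0.08 and 0.35. Sox2 had 1 and 0 reads in its window and 0 in its body, and Zfp42 (-1.36, adjusted p = 0.0311) was not called with DESeq2 or with the replicates as a block, at adjusted p-values of 0.0514 and 0.0813 in a range of 0.000488 to 0.0813. With 500 bp on each side, the windows of Klf4, Klf5 and Zfp42 had 0 reads at 50 ng, at least 56.9-fold, 127-fold and 30.6-fold below the body. The ratio of Zfp42 was -2.34 without 50-ng replicate 1 and -0.57 without replicate 2.

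In the 20 other network genes at 500 ng, 14 of 19 tested were lower at the TSS, against 66.7% of all genes, and 2 higher, against 19.3%, with a median of -2.42. At 50 ng 13 of 18 were lower, against 59.2%, and 1 higher, against 12.5%, with a median of -2.75. With more than 3 reads in each region, 12 of 17 were lower at 500 ng (median -2.38), against 66.4% of 17102 such genes (median -1.56). At 50 ng 11 of 16 were lower (median -2.59), against 57.3% of 16200 such genes (median -1.46). Rif1, a telomere and replication-timing factor, had 3 window reads against 611 body reads at 500 ng, a log2 ratio of -6.58 (interval -8.86 to -5.03), and 0 against 525 at 50 ng, at least 82.2-fold lower. Mycn had 3 against 222 reads at 500 ng (-5.59, interval -7.88 to -4.02), and Tdgf1 had 1 against 158 at 50 ng (-7.21, interval -12.52 to -4.71). Higher at the TSS were the growth factor gene Fgf4, at 1.7 (SE 0.17, adjusted p = 1.82e-09) at 500 ng and 2.09 at 50 ng, and Tcl1, an Akt co-activator gene, at 0.93 at 500 ng. Fbxo15, a target of Pou5f1 and Sox2, was at -1.47 at 50 ng, the least negative of the lower genes.

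uCG followed another pattern at the TSS, with Pou5f1 and Nanog high and Klf4 low against their bodies, and Esrrb low at its outermost annotated start alone. With edgeR's quasi-likelihood test (Benjamini-Hochberg), 5 of the 10 genes were higher at the TSS, against 66.5% of 18317 genes, and 4 were lower, against 10.9%. The median was 0.19, against 0.76 over all genes. Pou5f1 had levels of 5.30, 5.34 and 6.17 in the window and 3.59, 3.64 and 3.98 in the body, so all its window values were above all its body values (0.58, SE 0.11, adjusted p = 1.74e-05). Its window was at percentile 99.9 of all genes in uCG and at 23.2 in 5hmC. Nanog had 3.73, 4.12 and 4.96 in the window against 2.26, 2.07 and 2.66 in the body (0.87, SE 0.14, adjusted p = 2.17e-06), again with no overlap. Tfcp2l1 (0.84) and Prdm14 (0.68) were higher as well. Sox2 was higher (0.83, SE 0.14) with window levels of 2.56, 2.47 and 2.42 against 1.31, 1.49 and 1.42, but turned to -0.58 with 500 bp on each side, where more of the gene counts as body.

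Klf4 had window levels of 1.29, 1.17 and 1.25 and body levels of 2.99, 2.99 and 3.09, the lowest log2 ratio of the group (-1.29, SE 0.10, adjusted p = 8.54e-14). Its CG-rich TSS window was thus low in both assays against its own body. Genes of like CG density were compared for whole loci alone, and the part of CG density in this value was not tested. Esrrb had 43, 56 and 83 reads in its window, levels of 0.746, 1.2 and 2.03, and body levels of 2.35, 2.34 and 2.33 (-0.89, SE 0.14, adjusted p = 1.39e-06), and turned to 0.29 at the principal start. Klf2 had 2.19, 2.25 and 2.12 against 4.2, 3.59 and 3.19 (-0.75, SE 0.11), and turned to 0.32 with 500 bp on each side. These genes showed no overlap between window and body values in the 1-kb setting. Klf5 was lower by a small amount (-0.28, SE 0.12, adjusted p = 0.0308) and was called in 6 of 10 settings. It was not called without uTOP-seq replicate 2 (-0.30, adjusted p = 0.0626) or replicate 3 (-0.26, adjusted p = 0.0763), within a range of 0.000418 to 0.324. Zfp42 was at -0.20 (adjusted p = 0.0833) and not called. Among the 20 other network genes, 11 of 19 tested were higher and 3 lower, with a median of 0.31, from Utf1 (-0.60) and Mycn (-0.52) to Dppa4 (1.44) and Tcl1 (1.47). The plot of regions shows TSS window, gene body and upstream region side by side for each gene.

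**Figure D3:**
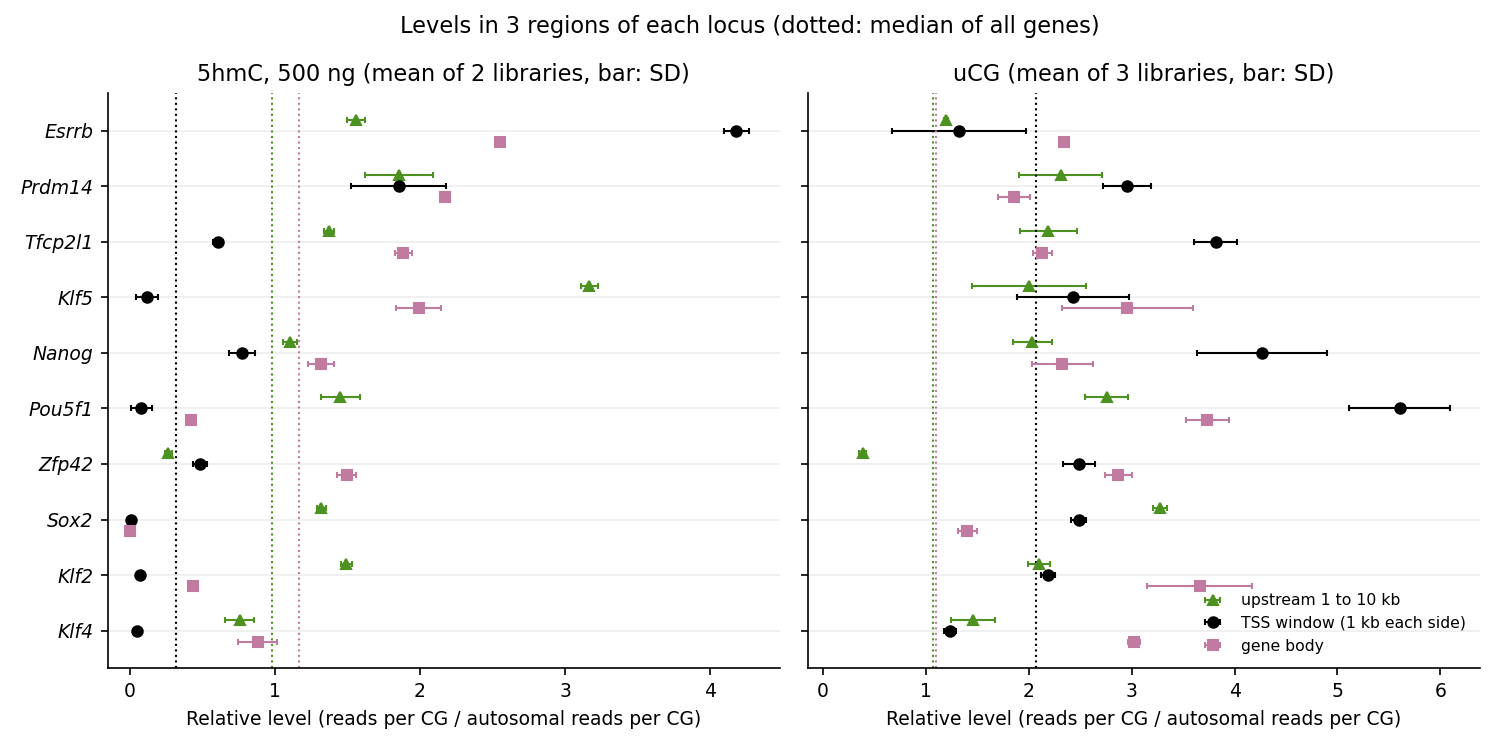
For each gene the relative level (mean with SD over libraries, n = 2 for 5hmC at 500 ng and n = 3 for uCG) is drawn for the TSS window, the gene body and the region 1 to 10 kb upstream, with dotted lines for the median of all genes. The TSS window is the lowest 5hmC region at Klf4, Klf5, Klf2, Pou5f1, Tfcp2l1 and Nanog and, by a narrow margin, at Prdm14 (1.853 against 1.856 upstream). It is the highest at Esrrb, around the outermost annotated start, and the uCG level of the Pou5f1 window reaches 5.61.

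Enhancers of several of these genes lie upstream, and the region from 1 to 10 kb upstream was therefore compared with the gene body in 5hmC at 500 ng. Whether the reads lay in enhancers was not tested. Sox2 showed the widest contrast: 477 and 485 reads at 233 upstream CGs, levels of 1.30 and 1.34, and 0 and 0 reads at the 29 CGs of the body, so upstream was at least 39.9-fold higher, taking 3 reads over the group as the floor, or at least 19.8-fold in replicate 1 and 20.1-fold in replicate 2 alone. This contrast rests on the CGs beyond 5 kb: from 1 to 5 kb upstream Sox2 had 18 and 16 reads at 102 CGs, a level of 0.107, which is at least 3.22-fold above the body. Over its whole span of 122 CGs, Sox2 had 1 5hmC read at 500 ng and 0 at 50 ng. Its uCG level in the same span was 2.62, so this stretch was covered by uTOP-seq. Pou5f1 had upstream levels of 1.36 and 1.55 against body levels of 0.445 and 0.405, and Klf2 had 1.47 and 1.52 against 0.416 and 0.455. Both libraries were higher upstream at each of these genes, with log2 ratios of 1.77 (SE 0.21, adjusted p = 2.51e-12) at Pou5f1 and 1.78 (SE 0.22, adjusted p = 1.85e-11) at Klf2. From 1 to 5 kb upstream the ratio of Pou5f1 was 0.81 (adjusted p = 0.0152, range over the settings 4.45e-14 to 0.0152) and that of Klf2 1.64. In 1-kb windows, Pou5f1 had levels of 1.28 to 4.37 from 10 to 4 kb upstream. Its windows from 4 to 3, 3 to 2 and 2 to 1 kb upstream were at 0.387, 0.703 and 0.114. Klf5 was higher upstream too, at 3.13 and 3.21 against 1.88 and 2.10 (0.67, SE 0.09, adjusted p = 5.49e-11), and its upstream level was at percentile 95.4 of all genes.

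Sox2, with 0 reads in its body, is described by its bound alone. Of the 9 genes with more than 3 reads in each region, 3 were higher upstream, against 28.5% of 18295 such genes, and 4 were lower, against 46.0%, with edgeR's quasi-likelihood test (Benjamini-Hochberg). The median of the 9 was -0.23, against -0.22 over all such genes. Zfp42 was the lowest, with 85 and 96 reads at 216 upstream CGs, levels of 0.249 and 0.287, against body levels of 1.45 and 1.54 (-2.48, SE 0.15, adjusted p = 2.66e-27). Of these 216 CGs, 160 had no flank of unique sequence, and at the CGs that had one, in a comparison chosen after seeing the data, the Zfp42 level was 1.0 upstream and 1.37 in the gene span. From 1 to 5 kb upstream Zfp42 was at -0.34 and not called (adjusted p = 0.0517, range 4.46e-49 to 0.0517). Esrrb was lower upstream of its outermost annotated start, at 1.60 and 1.51 against 2.54 and 2.56 (-0.71, SE 0.07, adjusted p = 1.49e-15). Tfcp2l1 (-0.46, SE 0.13, adjusted p = 0.000863) and Prdm14 (-0.23, SE 0.10, adjusted p = 0.0442) were lower by less and were not called from 1 to 5 kb upstream (-0.21 and -0.09, adjusted p = 0.191 and 0.491, the highest of their settings). Prdm14 was called in 2 of 5 settings. Klf4 (-0.22) and Nanog (-0.25) were not called. Among the 20 other network genes, 13 of 19 with as many reads were higher upstream and 3 lower, with a median of 0.50. The highest were Utf1, a chromatin-bound factor gene, with 1186 upstream reads against 0 and 5 in its body (5.01, interval from counting 3.78 to 6.64), and Mycn at 2.45, and the lowest were Zscan10 at -2.65 and Tcl1 at -0.89.

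By region, the 10 genes ranked differently among all genes. In 5hmC, 5 of 10 TSS windows, 6 of 10 gene bodies and 8 of 10 upstream regions were above the gene median, at median percentiles of 44.3, 58.4 and 65.9. In uCG, the counts were 8, 10 and 9, at median percentiles of 62.9, 93.7 and 86.5. Below the median in uCG were the TSS windows of Esrrb (percentile 30.5) and Klf4 (28.4) and the upstream region of Zfp42 (10.4, where 160 of the 216 CGs had no flank of unique sequence), while the gene bodies of Pou5f1 and Klf2 ranked at percentiles 99.1 and 99.0. The Esrrb window is that of the outermost annotated start. At the start of its principal transcript the uCG level was 2.80, above the gene median of 2.07 for TSS windows.

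Along each locus, windows of 1 kb with at least 5 CGs were ranked by reads per CG, and the highest 5hmC window lay upstream of the TSS at 7 of the 10 genes, against 31.7% of 18230 genes with at least 10 windows. Several of the 10 genes are short, and upstream windows made up 47.9% of the windows of a locus on average, against 35.0% over all these genes. Klf5 had the highest peak: from 5 to 4 kb upstream, 10 CGs had 207 and 203 reads at 500 ng and 178 and 167 from 50 ng, a level of 13.1 at 500 ng (SD 0.012, n = 2) and 15.8 at 50 ng (SD 0.23, n = 2). This window was also the highest of Klf5 in uCG, with 68, 46 and 38 reads (4.33, SD 0.55, n = 3). At Esrrb the highest window lay in an intron 37 to 38 kb past the outermost annotated start. It had 179 and 188 reads at 14 CGs at 500 ng and 138 and 92 from 50 ng (8.39 and 7.48). The highest window lay 95 kb past that start without 500-ng replicate 1 and 94 to 96 kb past it with windows of 2 kb. Sox2 peaked from 7 to 6 kb upstream, with 247 and 241 reads at 20 CGs at 500 ng and 166 and 166 from 50 ng (7.80 and 7.59), a stretch that the annotation gives to the transcripts Sox2ot and Gm42692. In these 3 windows the replicates of 500 ng differed little, and 50 ng ranked the windows of Klf5 and Sox2 the highest and that of Esrrb the next.

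Pou5f1 had its highest 5hmC window from 7 to 6 kb upstream, with 64 and 59 reads at 9 CGs at 500 ng and 37 and 38 from 50 ng (4.37 and 3.81). Its highest uCG window was the kilobase just upstream of the TSS, with 135, 148 and 158 uCG reads at 16 CGs (8.20, SD 2.01, n = 3), where 5hmC had 9 and 2 reads at 500 ng and 0 and 0 from 50 ng. The marks thus peaked in different stretches of Pou5f1. At Nanog the highest 5hmC window lay 5 to 6 kb past the TSS in coding exon and intron (3.11 at 500 ng, 4.40 at 50 ng), and the highest uCG window 5 to 4 kb upstream (5.06, 5hmC at 0.439), nearly tied with 1 to 2 kb past the TSS (5.06, 5hmC at 0.904), which was the highest without uTOP-seq replicate 2 or 3. Klf2 peaked in 5hmC from 4 to 3 kb upstream (2.28) and in uCG from 3 to 2 kb upstream (4.97), and Klf4 from 3 to 2 kb upstream in 5hmC (3.58, at 5 CGs) and 2 to 3 kb past the TSS in uCG (4.59). Prdm14 (5.32) and Zfp42 (3.07) had their highest 5hmC windows upstream, and Tfcp2l1 (5.23) in an intron. The 50-ng libraries ranked the same window the highest at 6 of the 10 genes. With windows of 2 kb, 4 genes had the highest 5hmC window upstream, and without either 500-ng replicate there were 6, since the highest window of Prdm14 lay in its gene span without replicate 1 and that of Zfp42 without replicate 2.

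The strongest single CG lay inside the highest 5hmC window at 4 of the 10 genes (Klf5, Sox2, Pou5f1 and Klf4) and outside it at the 6 others. The strongest 5hmC site of the 10 loci was a CG upstream of Klf5, at -4074 bp from the TSS, with 85 and 96 reads at 500 ng, 65 and 68 from 50 ng, 0 in each control library, and 38, 10 and 17 uCG reads. The next was at -6383 bp from the Sox2 TSS, with 73 and 45 reads at 500 ng, 60 and 16 from 50 ng, 0 in each control library, and 11, 0 and 4 uCG reads. The 202 bases around each site are printed because they hold these peaks, read from the GRCm38 plus strand 5′ to 3′ with CG dinucleotides in capitals, for Klf5 at chr14:99294517-99294718 and for Sox2 at chr3:34643922-34644123.
Klf5 upstream site: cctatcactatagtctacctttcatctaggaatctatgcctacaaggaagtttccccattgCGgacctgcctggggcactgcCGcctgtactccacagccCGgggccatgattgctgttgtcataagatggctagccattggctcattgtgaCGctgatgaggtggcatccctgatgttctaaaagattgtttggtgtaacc
Sox2 upstream site: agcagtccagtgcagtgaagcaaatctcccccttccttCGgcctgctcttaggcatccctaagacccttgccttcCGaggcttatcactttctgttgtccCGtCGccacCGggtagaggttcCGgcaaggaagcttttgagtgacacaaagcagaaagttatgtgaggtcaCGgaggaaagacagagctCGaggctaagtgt

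The Klf5 sequence holds 4 CGs and 137 and 137 reads of the 500-ng libraries, and the Sox2 sequence holds 8 CGs and 172 and 163 reads. Esrrb had its strongest CG in an intron 58438 bp past its outermost annotated start. The place of this CG relative to the principal start is not given here. It had 56 and 48 reads at 500 ng but 13 and 62 from 50 ng, so the 50-ng replicates lay far apart at this single site. Prdm14 had 43 and 48 reads at an intron CG 11757 bp past the TSS, and 18 and 16 at 50 ng. Across the 10 genes, with places taken from the start of the gene span, the strongest 5hmC site lay upstream at 6. It lay in an intron at 3 and in a coding exon at 1, Zfp42. It lay upstream at 32.6% of the 18230 genes, and upstream CGs were on average 41.4% of the CGs of the 10 loci, against 33.0% over these genes. How widely reads were spread also differed: at Sox2, 11 of 433 CGs (2.54%) held 50% of the 500-ng reads, and at Esrrb 266 of 2252 CGs (11.8%). In both 500-ng libraries 52.6% of the CGs of Esrrb had a read, against 12.2% at Klf2 and 23.4% of autosomal CGs, and in all uTOP-seq libraries 58.2% of the CGs of Pou5f1 had a read, against 14.6% of autosomal CGs.

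Within genes, coding exons carried more 5hmC than introns or untranslated exons at several genes. Zfp42 had 225 and 228 reads at the 44 CGs of its coding exon, a level of 3.29, against 148 and 152 reads at 125 intron CGs, a level of 0.768. Klf4 had 149 and 158 reads at 86 coding CGs, a level of 1.14, against 0.213 in untranslated exons and 0.272 in introns. Tfcp2l1 was at 2.92 in coding exons and 1.77 in introns. At Esrrb and Klf2 no such order was clear: the untranslated exons of Esrrb were above its coding exons at 500 ng (2.97 against 2.73) and below them at 50 ng (2.41 against 2.59), and those of Klf2 had 3 and 10 reads at 500 ng. These values are descriptions with no test. They are not set beside all genes, so they do not mark a trait particular to these genes. The paper reports exons among the elements enriched in its most hydroxymethylated CGs. CGs near the TSS, where 5hmC was low at most of these genes, were not left out.

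**Figure D4:**
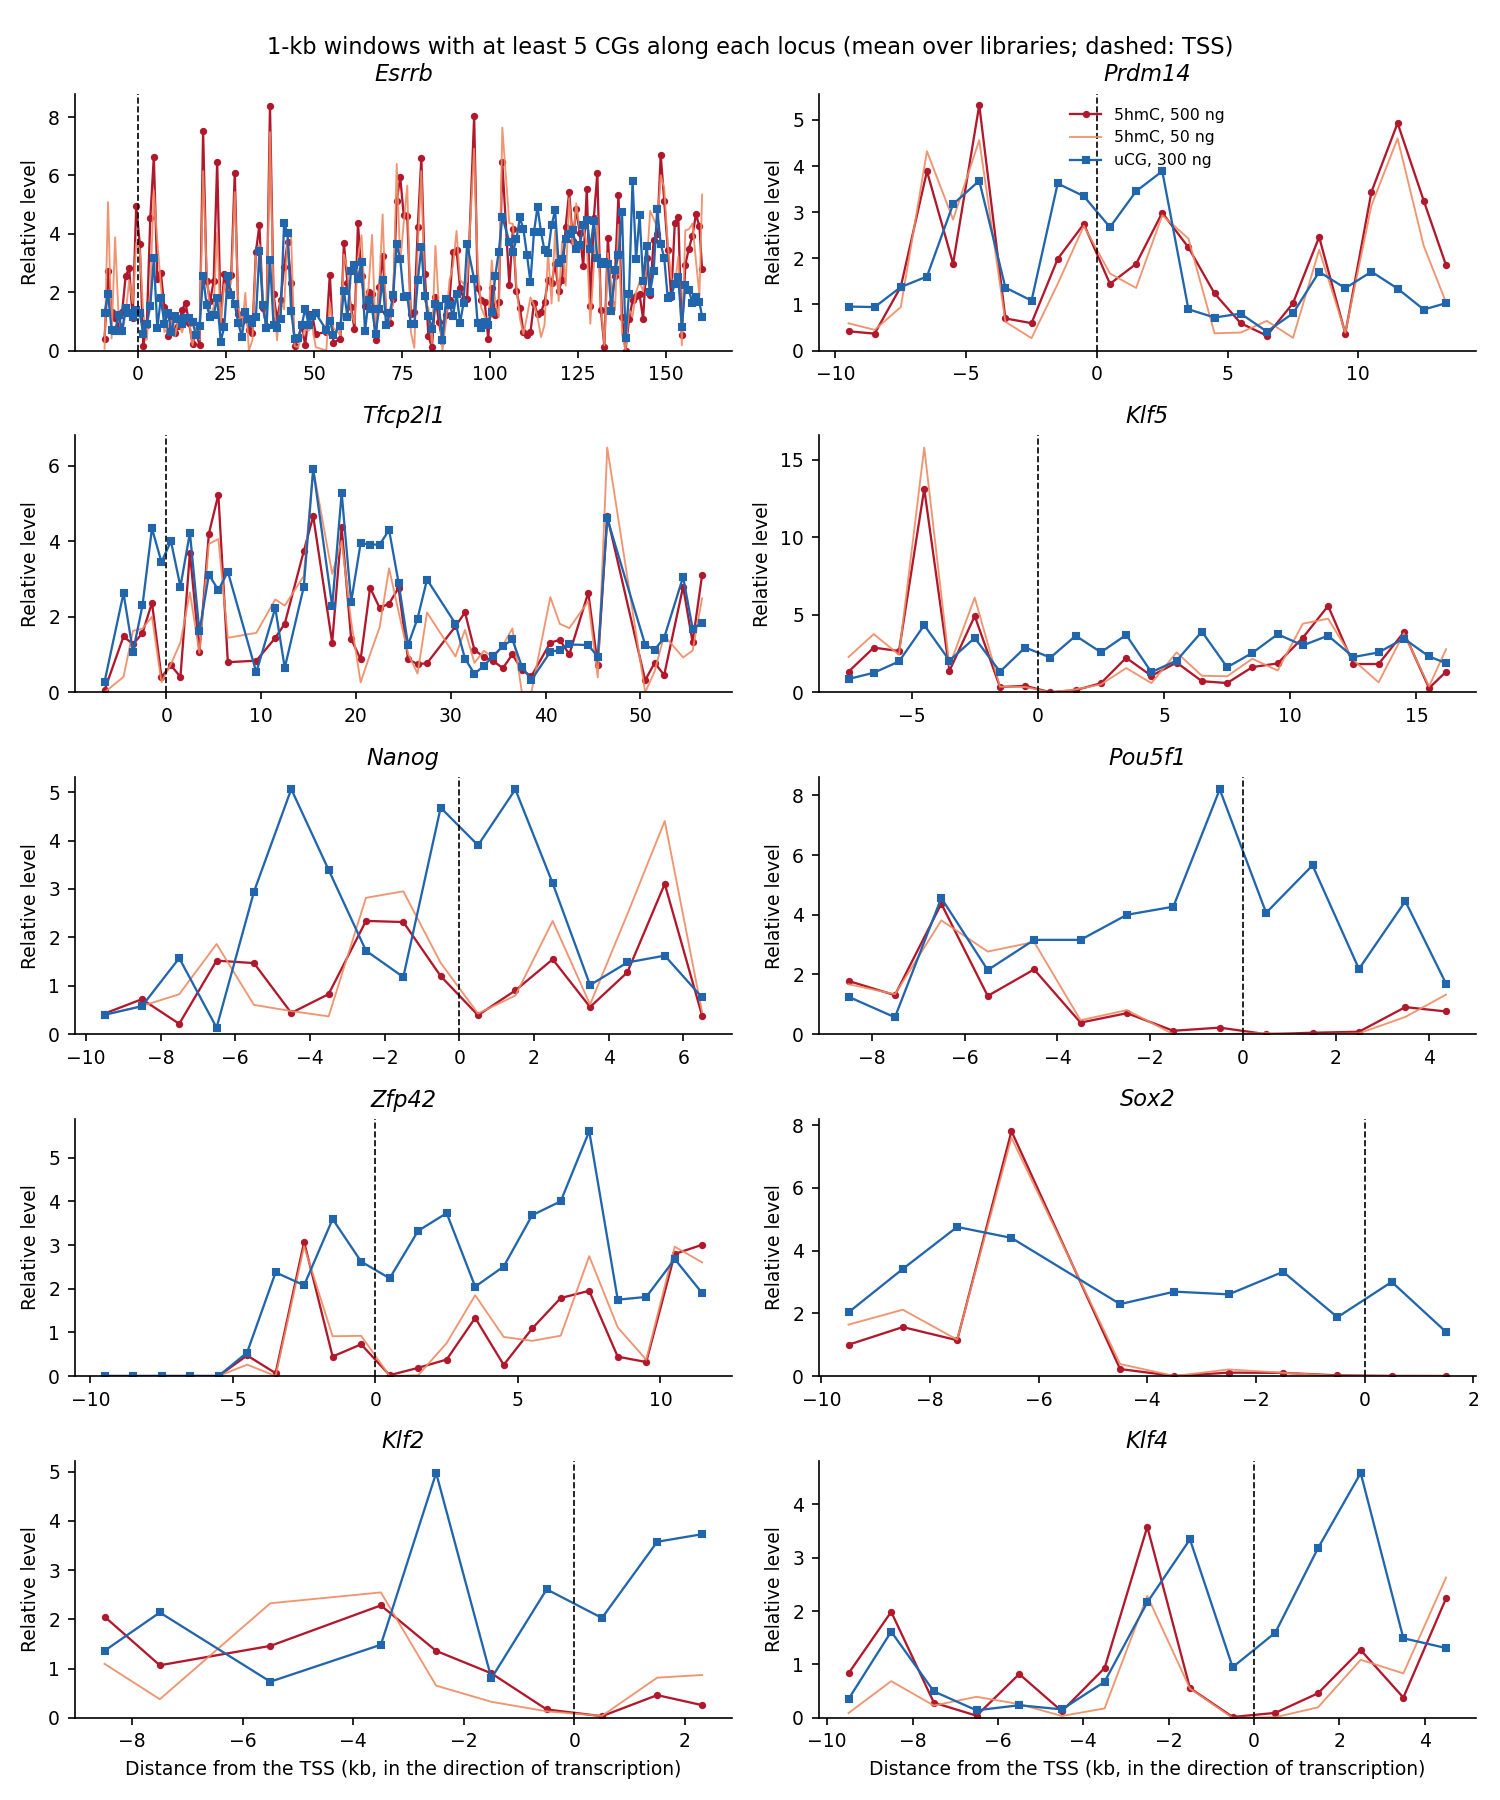
Each panel gives the relative level (mean over libraries) of 5hmC at 500 ng, 5hmC at 50 ng and uCG in 1-kb windows with at least 5 CGs against the distance from the TSS in kb, in the direction of transcription. 5hmC at both inputs peaks at the same upstream window of Klf5, Sox2 and Pou5f1, and uCG peaks next to the TSS of Pou5f1.

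The profiles along the loci show where 5hmC and uCG rise together and where they part. Spearman's rho between 5hmC at 500 ng and uCG over the windows of a locus was below 0 at Pou5f1 (-0.345, 14 windows) and Klf2 (-0.406, 10 windows), near 0 at Nanog (0.0392, 17 windows), and from 0.312 at Klf5 (25 windows) to 0.588 at Sox2 (11 windows) at the others. The value of Zfp42 (0.581, 22 windows) includes the windows from 10 to 5 kb upstream, which were at 0 in both assays. Of its 216 upstream CGs, 160 had no unique flank, and rho without these windows was not computed. Over 18194 genes with at least 10 windows the median was 0.385, and Pou5f1 and Klf2 were at percentiles 1.35 and 0.852. For Klf2 the sign turned with windows of 500 bp (0.330, 13 windows). The median of the 10 genes, with the windows at 0 of Zfp42 included, was 0.452 and that of the 20 other network genes 0.0828. Between 500 and 50 ng, rho ran from 0.686 at Klf4 to 0.984 at Sox2. The windows of a locus share the same libraries, the same CGs in both assays and neighbouring sequence, and they are not independent.

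Unique sequence and other annotated transcripts limit some of these loci. A unique flank of 100 bases on either side was present at 62.0% of the CGs of Zfp42 and at 96.1% or more of the CGs of each other locus. Both flanks were unique at 52.2% of the CGs of Zfp42, 70.9% of Nanog and 89.1% of Pou5f1, and at 95.1% or more at the other loci. From 1 to 10 kb upstream of Nanog both were unique at 62.9%. At the CGs with a unique flank on either side, chosen after seeing the data, Zfp42 had a level of 1.21 in 5hmC and 2.54 in uCG, against 0.760 and 1.57 over all its CGs. Sox2ot, on the same strand, covers 100% of the Sox2 locus, the antisense transcript Gm19553 overlaps 9.997% of the Pou5f1 locus, and the processed pseudogenes Gm10224, Gm4412 and Gm28882 lie within the loci of Nanog, Klf5 and Tfcp2l1. Reads at these stretches were counted for the locus.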

How the data were processed

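hmTOP-seq and uTOP-seq were run on DNA of E14TG2a cells, with 15 libraries in all. The deposited values are counts of reads per CG and library: for hmTOP-seq the authors kept Ion Proton reads with a raw length of 80 nt or more and a mapping quality of 30 or more on mm10, and dropped duplicates that shared start and length, while uTOP-seq reads were processed as in their earlier TOP-seq work. The strands of a uTOP-seq CG were summed. Counts were summed per locus (gene span plus 10 kb upstream, GENCODE M21, autosomes, at least 10 CGs for ranks), per TSS window (1 kb on each side), gene body and upstream region (1 to 10 kb, at least 5 CGs each).

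Tests used edgeR 4.0.16 (R 4.3.3), the quasi-likelihood fit with filterByExpr, TMM for whole loci and offsets for library total and CG number for regions, with Benjamini-Hochberg adjustment over all genes tested and a threshold of 0.05. In the region comparisons each library gave a value for each region, and the main fit treated these as separate samples. The replicate block, which pairs the regions of a library, was used as an alternative alone. A ratio with 1 to 3 reads was given an exact Clopper-Pearson interval (95%), and a count of 0 a floor of 3 reads over the group. In the TSS comparison at 50 ng and for the network genes at the TSS, counts are given with and without a limit of more than 3 reads in each region, chosen after seeing the data, and in the upstream comparison with it. With 0 and 5 body reads, Utf1 was given the interval too. Alternatives were library totals without TMM, no filter, the gene span alone, other window sizes, the principal transcript, repeats left out, centring by chromosome, a replicate block, each replicate left out, and DESeq2 1.42.0. Python 3.11.15, numpy 2.4.6, scipy 1.17.1, pandas 2.3.3, pysam 0.24.0 and matplotlib 3.10.9 were used, and flanks of 100 bases were mapped with minimap2 2.31. The tests were also tested on simulated data.

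Named genes are the 10 members in each comparison and, of the 20 other network genes, the 2 highest and the 2 lowest log2 fold changes among those past the threshold. For the locus with the highest 5hmC at 500 ng, the 3 genes nearest in log2 reads per CG over 7 libraries are named. Windows named are the highest of each locus in each assay. Sequences are the promoters of the 2 members with the most and the 2 with the fewest CGs and the strongest sites of 2 members. The members and lists were chosen with earlier results of these data known. Tests used the 500-ng, 50-ng and uTOP-seq libraries. The 5-ng libraries entered no test, and the chi-square over degrees of freedom between their replicates was 24.6, against 2.20 at 500 ng and 5.76 at 50 ng.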

Additional observations from a re-analysis of the deposited data

Results flagged for a closer look

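The labelled 5-ng libraries were in no test, yet they held signal far above their controls at the 10 loci: 6647 reads in replicate 1 and 6848 in replicate 2, against 0 and 31 reads in the 5-ng controls, with the 31 control reads at Esrrb. Esrrb had 3472 and 4396 of these reads, a relative level of 2.14 and 2.63, and had the highest mean level of the 10 there as well, although Prdm14 was above it in replicate 1 (2.56). The replicates lay far apart at Sox2 (441 and 143 reads), Klf2 (115 and 41) and Prdm14 (685 and 347).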

How the results depend on the processing

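Of 439 values of single members under alternative settings, 399 kept their direction and their side of the threshold, 17 lost the call, 9 gained it and 14 changed sign. The counts of genes past the threshold in either direction together stayed within 1.5 times the count reported, except for 50 against 500 ng, while the genes higher at the TSS at 50 ng fell from 2206 to 1426 with the replicate block. At 50 against 500 ng the count of 1 became 0 when centred by chromosome, 176 with DESeq2, and 1 to 2650 with each replicate left out in turn. With the replicate block it was 121, and as a check of the pairing, the differences between replicates 1 and 2 at 500 and at 50 ng correlated at 0.029 over 17675 genes, which share the same libraries. Changes of sign at 50 against 500 ng were Pou5f1 (-0.078 to 0.26) and Zfp42 (-0.14 to 0.26) with each replicate left out, lowest without 50-ng replicate 1 and 2, and Klf5 (-0.018 over the gene span), and for 5hmC against uCG Prdm14 (-0.13 without TMM). At the TSS, the principal transcript start turned Esrrb to -1.01 (500 ng), -0.96 (50 ng) and 0.29 (uCG). Windows of 500 bp turned Prdm14 to 0.060 at 500 ng and, in uCG, Sox2 to -0.58, Klf2 to 0.32 and Zfp42 to 0.12, and windows of 2 kb turned Prdm14 to -0.15 at 50 ng and Zfp42 to 0.044 in uCG. Nanog turned to 0.072 from 1 to 5 kb upstream.

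The median percentile of the 10 loci was 46.8 in 5hmC and became 58.6 over the gene span, 52.1 at CGs with a read, 44.0 outside repeats, 51.0 among genes of the same chromosome, 18.7 within the fifth of CG density and 52.1 at 50 ng. In uCG it was 92.1 and became 94.6 at CGs with a read, 95.3 by chromosome, 87.5 by CG density, and 90.1 to 92.8 with each replicate left out. With 2-kb windows, 4 loci had the highest 5hmC window and 3 the highest uCG window upstream, in place of 7 and 5. The median rho of 0.452 became 0.419 at 50 ng, 0.521 with 2-kb windows (5 loci, at 0.549 with 1-kb windows), 0.407 with 500-bp windows, and 0.407 to 0.465 with each replicate left out, in settings chosen after seeing the data. For each of these changes the cause was not tested. Leaving out a replicate of the region comparisons with 2 libraries left a single library in each region, so those values carry no test.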
